A study of Arabidopsis thaliana with 9 samples.

Results

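Transcripts of the mitochondrial genome were followed in roots of Arabidopsis thaliana Col-0 seedlings with and without the antibiotic carbenicillin. They were taken as the rows of the authors' gene count table whose identifier starts with ATMG, the locus prefix of the mitochondrial genome, and whose count summed over 9 libraries was at least 10. This gave 81 genes of the 28775 in the table. Of these, 3 are ribosomal RNA (ATMG00020, ATMG01390 and ATMG01380, set apart from general knowledge of the locus list, since neither the table nor the reference used here names them), and the other 78 are called the non-ribosomal genes below. The table holds 146 ATMG rows in all, of which 65 fell below the minimum and 48 were at 0 in every library. Just inside the minimum were ATMG00260, ATMG00680 and ATMG01160 with summed counts of 13, 14 and 17, and just outside it were ATMG00200, ATMG01275 and ATMG00220 with 9, 7 and 5.

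Each of the 3 groups had 3 libraries of total root RNA, and all seedlings spent 6 days on a first plate and 1 day on a second at 24 °C with 16 h of light and 8 h of dark. Mock seedlings never met the drug. The 1 day group met carbenicillin at 10 µg/mL on the second plate only, and the 7 days group met it at that dose on both plates. The labels do not say whether the replicates came from separate plantings, so p-values measure the spread between these libraries, which may be technical.

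Plant mitochondria keep a small genome that codes for some subunits of the respiratory chain and of ATP synthase, for proteins that attach heme to cytochrome c, for part of the mitochondrial ribosome and for its RNAs. All other mitochondrial proteins come from nuclear genes, including the phage-type RNA polymerases that transcribe the mitochondrial genome and the factors that trim, splice and edit its transcripts, in which chosen cytidines become uridines. In Col-0 a long copy of the mitochondrial genome also sits near the centromere of chromosome 2. Carbenicillin is a beta-lactam that blocks cell wall synthesis in bacteria and is used in plant tissue culture to remove them.

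That copy bears on many of the counts reported here, so it was measured in the RefSeq genome of assembly TAIR10.1, which may not be the build used by the authors. The stretch of chromosome 2 with the most shared sequence ran from 3239038 to 3509765. Of all 50-base windows of the 367808-base mitochondrial genome, 70.3% had an identical window inside it. Among the 33 protein genes of the mitochondrial genome, 16 were identical over their full coding sequence, 12 shared some windows and 5 shared none, among them cox1, nad9 and atp4. The large and small ribosomal RNA genes shared 0% and 0.371% of their windows. Reads from these ribosomal RNA genes therefore had almost no identical origin in that stretch, and no other place was compared. Reads from genes such as atp9 or cob have 2 or more identical origins at this window length.

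The coding sequences shown are those of 3 genes whose counts fell differently on the paired rows, with C-to-U editing sites annotated by RefSeq in capitals. The whole of atp9, which codes for the ring subunit of ATP synthase, lies at MT:270961-271185 on the minus strand and has an identical copy at chr2:3251856-3252080. The first 150 bases of cob, the gene of cytochrome b of complex III, lie at MT:182709-182858 on the minus strand and recur at chr2:3450863-3451012. The first 150 bases of 1 of the 2 atp6 copies, genes of the proton channel subunit of ATP synthase, lie at MT:49423-49572 on the plus strand, hold no annotated editing site and recur at 2 places in the insertion.
atp9: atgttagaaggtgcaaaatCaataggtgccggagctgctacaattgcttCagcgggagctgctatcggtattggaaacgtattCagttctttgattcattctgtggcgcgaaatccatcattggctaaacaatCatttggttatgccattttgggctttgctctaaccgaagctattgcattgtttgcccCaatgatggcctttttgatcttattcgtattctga
cob: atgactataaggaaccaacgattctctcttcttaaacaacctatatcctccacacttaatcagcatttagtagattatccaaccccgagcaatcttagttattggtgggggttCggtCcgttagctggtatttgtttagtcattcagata
atp6: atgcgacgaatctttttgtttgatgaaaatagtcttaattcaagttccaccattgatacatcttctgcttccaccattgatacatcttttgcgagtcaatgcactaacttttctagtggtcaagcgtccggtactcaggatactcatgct

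The authors' counting put some of these genes on the mitochondrial row and others on the chromosome 2 row. RefSeq notes on chromosome 2 genes were the only source that tied an ATMG identifier to a name, and they named 14 of the 81 genes and 10 of the 65 rows below the minimum. For atp9 (ATMG01080), 274842 counts over the 9 libraries fell on the mitochondrial row and 79736 on AT2G07671. For cob (ATMG00220) the split was 5 against 83020 on AT2G07727, so the row of cob fell below the minimum although its sequence was well covered. The same held for rpl5 (ATMG00210), a protein of the large ribosomal subunit, with 0 against 34134 counts on AT2G07725, and for rps4 (ATMG00290), a protein of the small one, with 0 against 14710 on AT2G07734. The first part of nad1 (ATMG01275), a membrane subunit of complex I, had 7 counts against 17615 on AT2G07785. In the opposite direction, all 60053 counts of the pair lay on atp6-1 (ATMG00410) and 0 on AT2G07741, the only chromosome 2 row noted for it. A low value of a named row is thus no measure of the transcript. Groups are compared below within a row, and any ranking of rows is one of counts as the authors placed them.

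Where both rows held at least 1000 counts, the split hardly varied between libraries. For atp1 (ATMG01190), the catalytic-head alpha subunit of ATP synthase, between 8.92% and 9.83% of the pair's counts lay on the mitochondrial row. The range was 74.4% to 79.2% for atp9, 55.5% to 61.5% for cox3 (ATMG00730), a subunit of complex IV, and 94.5% to 97.4% for the second part of nad2 (ATMG01320), a membrane subunit of complex I. For ccmFC (ATMG00180), a protein of cytochrome c maturation, it ran from 33.9% to 43.1%. In none of these 5 pairs did a group of libraries stand wholly apart from the mock libraries. The remaining pair, ATMG00560 with AT2G07715, ran from 53.5% to 60.1%. There all 1 day libraries (58.2%, 57.5% and 60.1%) lay above all mock libraries (56.9%, 56.7% and 53.5%). Its 7 days libraries lay within the mock range. This pair was singled out after its values were seen, and its split was not tested. A two-sided exact test of 3 libraries against 3 cannot give less than 0.1.

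**Figure D1:**
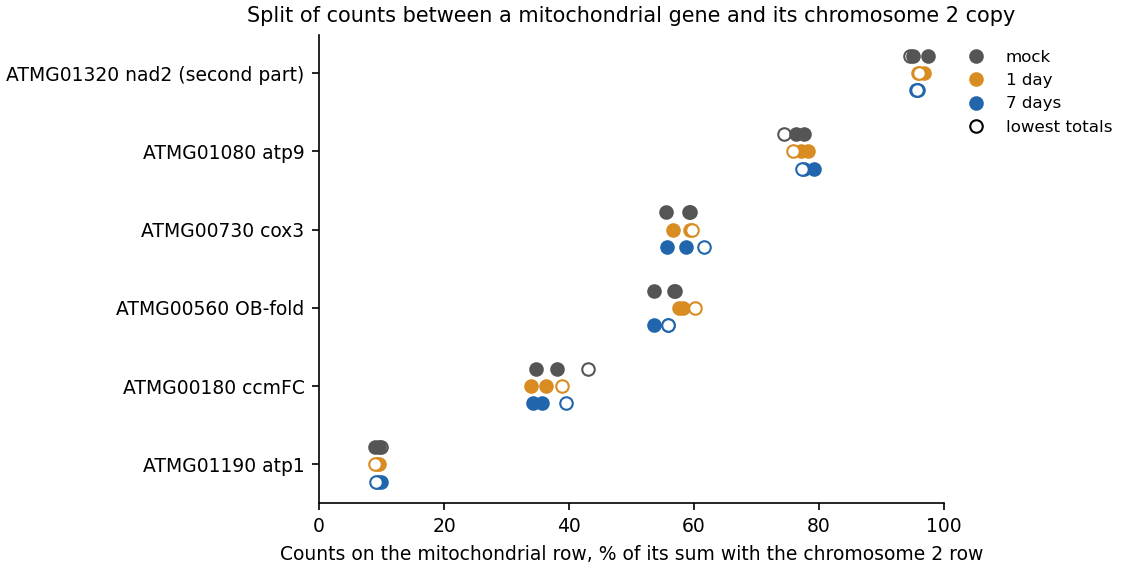
Counts on the mitochondrial row as a percentage of the pair's sum with its chromosome 2 row (x axis) for 6 pairs, with 1 point per library, colour for group and open circles for the 3 libraries of lowest total. Each pair keeps to its own narrow range, from 8.92% to 9.83% for atp1 up to 94.5% to 97.4% for nad2, in all groups.

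Total counts per library ranged from 5820675 to 16088265. The 3 lowest totals, 5820675, 7533177 and 6707693, belonged to mock 1, 1 day 3 and 7 days 3, 1 in each group. All 6 root identity genes examined were detected in every library, at summed levels of 207 to 295 CPM (counts per 1e+06 counts of a library). All 8 shoot genes (photosynthesis, carbonic anhydrase and leaf defence) were detected somewhere, and their summed level was 32.5 and 38.6 CPM in mock 1 and mock 3, 62.4 in 1 day 3 and 92.6 in 7 days 3, against 0.603 to 2.11 in the other 5 libraries. No shoot gene was at 0 in all libraries, while RBCS2B, TGG1 and LOX2 were at 0 in mock 2, 1 day 1, 7 days 1 and 7 days 2. The summed level of 3 touch-responsive genes was 29.9 to 39.3 CPM in mock, 22.7 to 45.3 after 1 day and 21.4 to 53.8 after 7 days.

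The non-ribosomal genes together took a somewhat larger mean share of the counts in treated roots than in mock roots, but the treated libraries lay on both sides of mock and no difference passed its test. As a percentage of all counts that were not ribosomal RNA, their share was 1.81, 2.11 and 1.75 in mock, 2.07, 2.74 and 1.59 after 1 day, and 2.30, 3.11 and 1.68 after 7 days. The libraries 1 day 2, 7 days 1 and 7 days 2 lay above all mock libraries, 1 day 3 and 7 days 3 lay below them, and 1 day 1 lay among them. The means were 1.89% ± 0.193 in mock, 2.13% ± 0.576 after 1 day and 2.36% ± 0.718 after 7 days (SD, n = 3 each). In two-sided exact permutation tests, p was 0.7 in the comparison of 1 day with mock (difference 0.241 percentage points), 0.4 in that of 7 days with mock (0.472) and 0.7 in that of 7 days with 1 day (0.231), where 3 libraries against 3 cannot give less than 0.1. Over the 6 share tests made here, ribosomal RNA included, every Benjamini-Hochberg adjusted value of these exact tests was 0.9. None of the 3 differences was detectable at this number of libraries, and in bulk RNA fewer cells of a type and less RNA per cell cannot be told apart.

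The replicate numbers of 7 days and 1 day were taken as pairs from these same counts and not from a label, as described with the processing. In these the non-ribosomal share was higher after 7 days in 3 of 3 pairs. Both 7 days 3 and 1 day 3 were among the libraries of lowest total and highest shoot gene level. The agreement of the pairs is therefore no independent support. An exact sign-flip test over the pairs, chosen after seeing the data, gave a two-sided p of 0.25, the smallest that 3 pairs allow.

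Single libraries decided these differences. Without 7 days 2, the share after 7 days exceeded mock by 0.0973 points, and without 7 days 3 by 0.813. Without 1 day 2 the difference between 1 day and mock turned to -0.0611, and without 1 day 3 it was 0.512. Between 7 days and 1 day it turned to -0.144 without 7 days 2 and to -0.0402 without 1 day 3, and it was 0.572 without 7 days 3 and 0.533 without 1 day 2. Without all 3 libraries of lowest total the differences were 0.470, 0.772 and 0.301 points in the order given above. Of the libraries then left, only mock 3 held a raised shoot gene level, at 38.6 CPM against 0.603 to 2.11 CPM.

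The 4 libraries with the highest shoot gene levels, mock 1, mock 3, 1 day 3 and 7 days 3, were also the 4 with the lowest mitochondrial share, at 1.59% to 1.81% against 2.07% to 3.11% in the other 5. The part of shoot RNA or of depth in the share was not tested. Rows inside the chromosome 2 insertion, of which 56 of 86 in the table held at least 10 counts, moved with the non-ribosomal genes. These rows lie in sequence shared with the mitochondrial genome, so they are no independent set. They took between 0.393% and 0.821% of the counts without ribosomal RNA, and their ratio to the non-ribosomal genes stayed between 0.247 and 0.272 in the 9 libraries. The share of all plastid rows, which come from the other organelle genome, ranged from 1.81% to 2.41% of all counts.

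**Figure D2:**
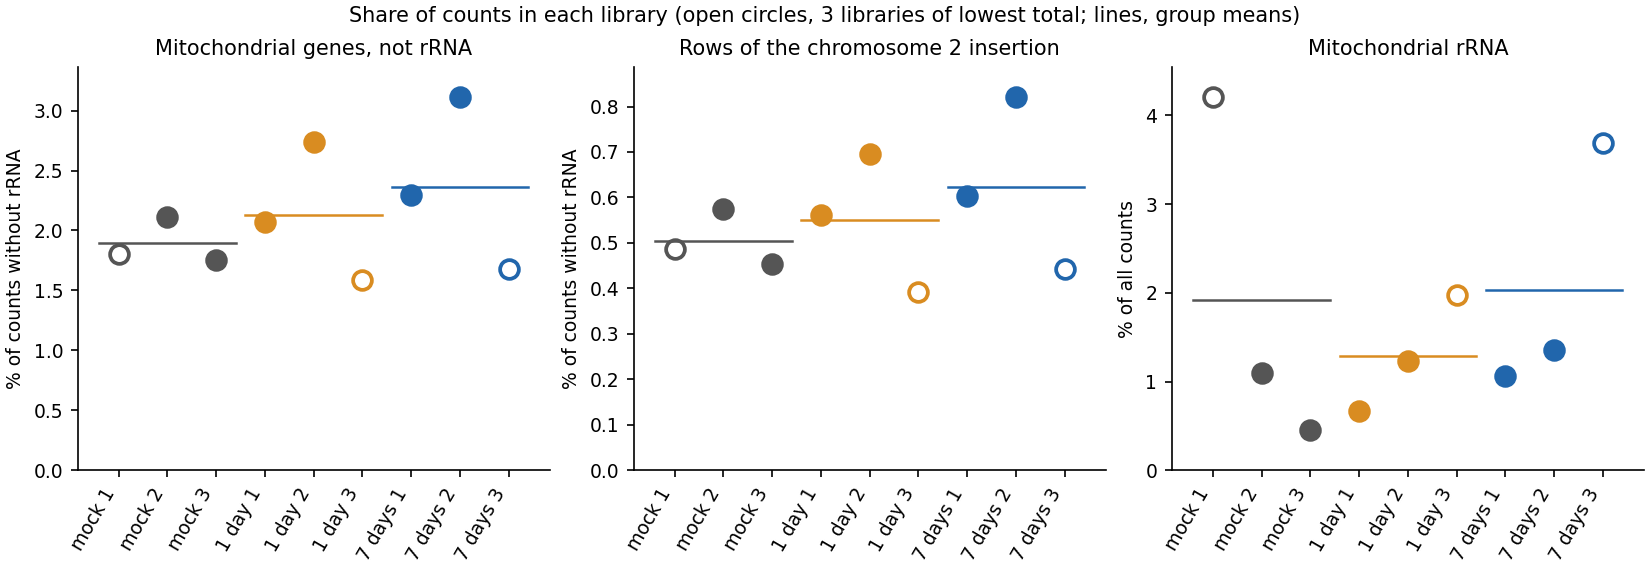
Percentage of counts (y axes from 0) in each of the 9 libraries for the non-ribosomal mitochondrial genes, the rows of the chromosome 2 insertion and the mitochondrial ribosomal RNA, with lines for group means and open circles for the 3 libraries of lowest total. The first 2 panels share their pattern, with 7 days 2 highest at 3.11% and 0.821%, while ribosomal RNA is highest in the open circles of mock 1 (4.20%) and 7 days 3 (3.69%).

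Mitochondrial ribosomal RNA followed another pattern. Its share of all counts was 4.20%, 1.09% and 0.453% in mock, 0.669%, 1.23% and 1.97% after 1 day, and 1.06%, 1.35% and 3.69% after 7 days. In each group the library of lowest total had the highest share, and the groups overlapped. The exact permutation tests gave p = 0.9 for 1 day against mock (difference -0.625 points), 0.9 for 7 days against mock (0.118) and 0.6 for 7 days against 1 day (0.743). The first of these turned to 0.519 without mock 1 and to 0.178 without the 3 libraries of lowest total. The second turned to -0.710 without 7 days 3, to -0.613 without mock 3 and to -0.294 without mock 2, and was 1.26 without mock 1. The third turned to -0.0850 without 7 days 3. By replicate number, the ribosomal RNA share too was higher after 7 days than after 1 day in 3 of 3 pairs (exact sign-flip test, two-sided p = 0.25). These pairs too were drawn from the same counts.

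ATMG00020, the RNA of the large ribosomal subunit, had TMM-scaled levels of 30550, 8992 and 3666 CPM in mock, 5499, 10101 and 13672 after 1 day, and 8420, 11146 and 25442 after 7 days. Its highest level was in a mock library and its lowest in another mock library, so no ordering of the groups held. Its log2 fold change was -0.56 ± 0.67 (SE) between 1 day and mock, 0.06 ± 0.67 between 7 days and mock and 0.62 ± 0.67 between 7 days and 1 day, with p-values of 0.867, 1.00 and 1.00 from the quasi-likelihood test of edgeR, adjusted by Benjamini-Hochberg over all genes tested. Leaving out mock 1 turned the first of these to 0.62, and leaving out the 3 libraries of lowest total turned it to 0.30.

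ATMG01390, the RNA of the small subunit, had 12320, 1865 and 825 CPM in mock, 1066, 2366 and 5751 after 1 day, and 2314, 2419 and 11667 after 7 days. The libraries mock 1, 1 day 3 and 7 days 3 were again high in their groups. Its log2 fold changes were -0.71, 0.13 and 0.84 in the same order, each with an SE of 0.95 and adjusted p-values of 0.883, 1.00 and 1.00 (edgeR, Benjamini-Hochberg). Counts of ATMG00020 exceeded those of ATMG01390 by a ratio of 2.48, 2.38 and 2.18 in these 3 libraries and of 3.64 to 5.16 in the other 6, so the 2 RNAs were high in the same libraries but by unequal folds. The ribosomal RNA to non-ribosomal count ratio was 1.27 to 2.43 in the 3 libraries and 0.259 to 0.523 in the other 6. ATMG01380, the small 5S RNA of the ribosome, had 26 counts in all, 14 of them in 1 day 3, and did not pass the filter on low counts. The part of library depth or of library preparation in these levels was not tested, so they do not measure the amount of ribosomal RNA in the root.

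Among the 78 non-ribosomal genes, counts were concentrated in few rows. This describes counts as placed and not transcript amounts. Over all libraries, the mitochondrial row held from 9.45% (atp1) to 96.0% (second part of nad2) of its pair's counts. A mean of at least 1000 CPM was found in 6 genes, between 10 and 1000 CPM in 33 and below 10 CPM in 39, and the 10 most counted genes took 71.7% of their counts. The most counted row, ATMG01360, which the reference used here does not name, took between 16.9% and 18.9% in each library. It had 3249, 3520 and 3095 CPM in mock, 3552, 5125 and 2902 after 1 day, and 4244, 5662 and 2803 after 7 days. The libraries 1 day 2 and 7 days 2 were the highest and 1 day 3 and 7 days 3 the lowest, and the groups overlapped. Its log2 fold change for 7 days against mock was 0.37 ± 0.27 (SE; edgeR adjusted p = 1.00). The next unnamed rows, ATMG00160 and ATMG00060, had means of 1631 and 1608 CPM.

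The named genes of the respiratory chain and of ATP synthase were also highest in 7 days 2 or 1 day 2, while their lowest library varied. For the second part of nad2 in complex I, which passes electrons from NADH into the chain, levels were 326, 427 and 393 CPM in mock, 424, 576 and 328 after 1 day, and 552, 690 and 298 after 7 days. The 7 days group ran from below the mock range to above it, 1 day 3 lay just inside it, and the log2 fold change for 7 days against mock was 0.43 ± 0.28 (SE; edgeR adjusted p = 1.00). For cox3, which belongs to the oxygen-reducing complex IV, levels were 1000, 1080 and 902 CPM in mock, 1143, 1631 and 816 after 1 day, and 1236, 1642 and 893 after 7 days. Here both 1 day 3 and 7 days 3 lay below every mock library, and the log2 fold change for 7 days against mock was 0.34 ± 0.26 (edgeR adjusted p = 1.00).

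Of the ATP synthase genes, atp9 had 1628, 2271 and 2252 CPM in mock, 2330, 3570 and 1681 after 1 day, and 2461, 3167 and 1854 after 7 days. Unlike most members, it was highest in 1 day 2 and lowest in mock 1. Its log2 fold change for 7 days against mock was 0.28 ± 0.28 (SE; edgeR adjusted p = 1.00). The levels of atp6-1 were 380, 512 and 417 CPM in mock, 535, 704 and 357 after 1 day, and 577, 785 and 362 after 7 days. Its groups overlapped, with a log2 fold change of 0.40 ± 0.29 for 7 days against mock (edgeR adjusted p = 1.00). The row of atp1 had 117, 130 and 109 CPM in mock, 134, 179 and 90.9 after 1 day, and 152, 203 and 100.9 after 7 days, a log2 fold change of 0.36 ± 0.26 for 7 days against mock (edgeR adjusted p = 1.00). Its chromosome 2 row, AT2G07698, was also lowest in 1 day 3 (922 CPM) and highest in 7 days 2 (1858 CPM). So was the row of the cob copy, AT2G07727, with 519 and 1103 CPM.

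The rows named for cytochrome c maturation or the ribosome that passed the filter were ccmFC, ATMG00960 and rps12. Rows without a name in the reference used here, or with another name there, may hold others. The planned list of ribosomal proteins also held ATMG00560, ATMG00090 and ATMG00080, under names the reference does not pair with them. These rows had 31285, 163991 and 55112 counts in all, so rps12 does not stand for the class. The levels of ccmFC were 19.1, 22.2 and 20.9 CPM in mock, 20.3, 30.4 and 15.9 after 1 day, and 23.0, 34.0 and 18.0 after 7 days, with a log2 fold change of 0.28 ± 0.25 for 7 days against mock (edgeR adjusted p = 1.00), which turned to -0.02 without 7 days 2. ATMG00960, noted as a cytochrome c assembly protein, departed from the common pattern: it had 37.3, 42.6 and 31.2 CPM in mock, 36.5, 42.2 and 18.0 after 1 day, and 38.6, 51.3 and 48.4 after 7 days. In 7 days 3 it was thus high where most members were low. Its log2 fold changes were -0.18 ± 0.25 between 1 day and mock, 0.31 ± 0.25 between 7 days and mock and 0.50 ± 0.25 between 7 days and 1 day (edgeR adjusted p = 0.889, 1.00 and 1.00). Only rps12 (ATMG00980), a protein of the small ribosomal subunit, passed the filter among the genes named as ribosomal proteins, at 0.653 to 1.48 CPM over all libraries. Its log2 fold change for 7 days against mock was -0.10 ± 0.38 (edgeR adjusted p = 1.00), on 112 counts in all.

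Most non-ribosomal genes were highest in the same library, 55 of the 67 tested in 7 days 2, while the lowest library varied. It was 1 day 3 for 33 genes, 7 days 3 for 22 and mock 3 for 8. Of the 39 genes tested with a mean of at least 10 CPM, 38 were highest in 7 days 2, the exception being atp9, and 34 were lowest in 1 of the 3 libraries of lowest total. The highest level of a gene exceeded its lowest by a median of 2.20-fold (range 1.64 to 2.85). Relative to each gene's own mean, the median log2 deviation of these 39 genes was -0.18, 0.05 and -0.27 in mock, -0.02, 0.39 and -0.44 after 1 day, and 0.15, 0.62 and -0.35 after 7 days. Replicates of a treated group thus lay further apart than the group means. These genes share libraries and, in part, transcripts, so their number adds no independent evidence.

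**Figure D3:**
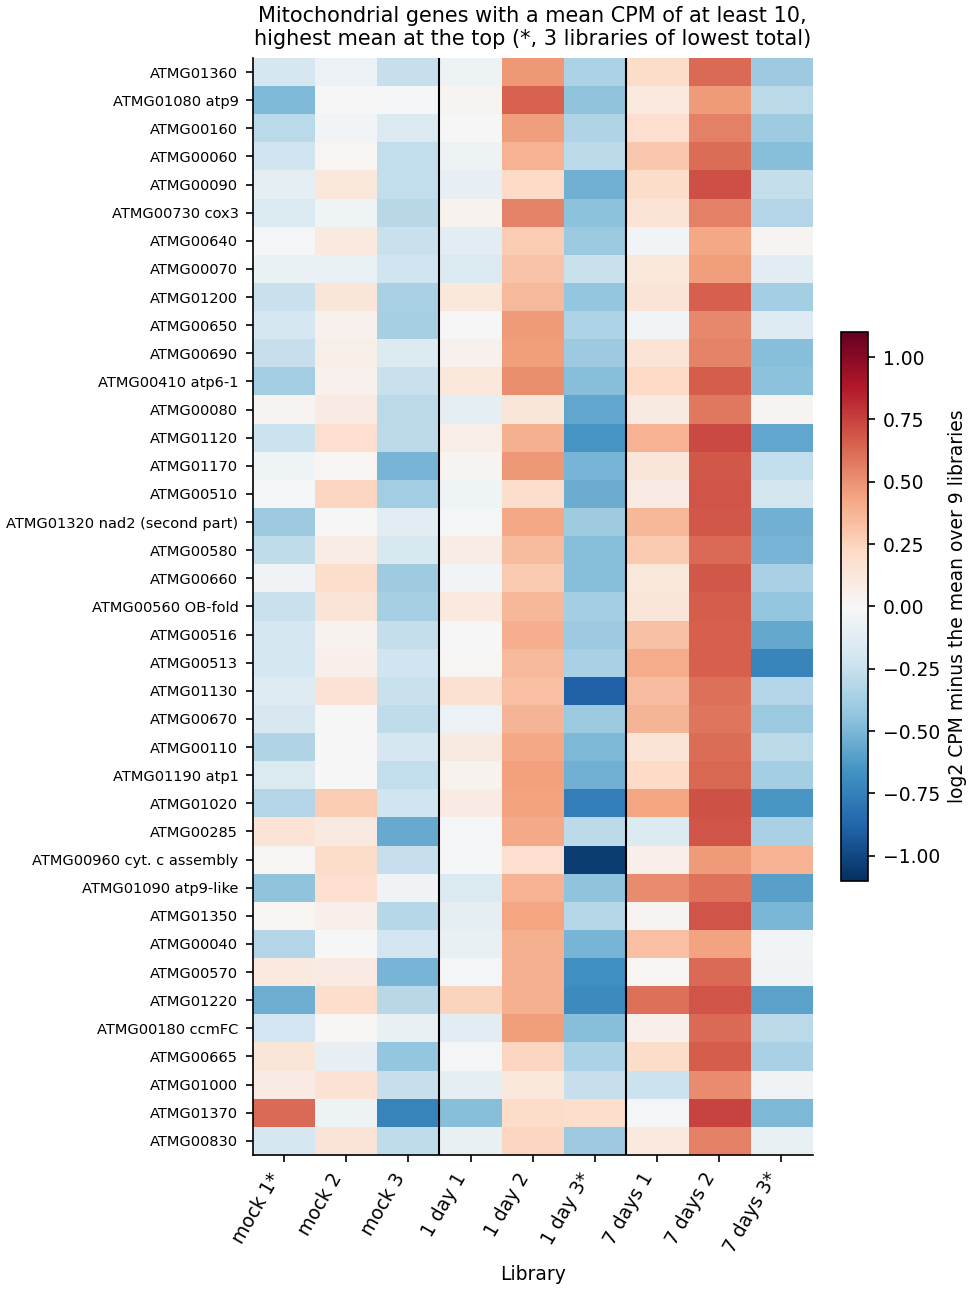
Log2 CPM of 39 non-ribosomal mitochondrial genes (rows, highest mean at the top) minus the gene's mean over 9 libraries (columns, in group order; stars mark the 3 libraries of lowest total), red above and blue below the mean. The column of 7 days 2 is red and that of 1 day 3 blue for nearly all genes, with medians of 0.62 and -0.44.

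No member was called between any groups. Of the 81 genes, 69 passed the filter on low counts, 67 of them non-ribosomal and 2 ribosomal RNA, and 12 did not. After 1 day against mock, 0 of the 67 non-ribosomal genes and 0 of the 2 ribosomal RNAs had an adjusted p under 0.05 in edgeR, where 0.158% of all 19580 genes tested did. The lowest adjusted p was 0.795. At an unadjusted p under 0.05 the count was also 0 of 67, against 7.45% of all genes, and DESeq2 called 0 of 78, against 0.824% of the genes it tested, with no adjusted p for 11 of the 78. The log2 fold change was above 0 in 51 of 67, against 49.7% of all genes, with a median of 0.14 against -0.0013 over all genes. The lowest p belonged to ATMG00450, an unnamed row of 4.67 CPM, at a log2 fold change of 0.47 ± 0.32 (adjusted p = 0.795). Without 1 day 2, 15 of 68 were above 0 with a median of -0.07, and without 1 day 3, 61 of 69 with a median of 0.32. The median was 0.24 without mock 2 and 0.04 without mock 3.

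The groups did not overlap for 1 of the 67 genes after 1 day, ATMG00280, a row noted as similar to the large subunit of the plastid enzyme Rubisco and singled out after its values were seen. It had 1.75, 1.63 and 1.68 CPM in mock and 1.503, 1.45 and 0.914 after 1 day, lower in all 3. Over all genes tested, 5.79% were lower and 6.52% higher with no overlap. Its log2 fold change was -0.33 ± 0.42 with an adjusted p of 0.875 (edgeR, Benjamini-Hochberg). The row held 193 counts in all, against 1126 on its chromosome 2 row, AT2G07732. On that row the groups overlapped, with 9.81, 11.4 and 8.68 CPM in mock and 8.45, 8.57 and 8.75 after 1 day.

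After 7 days against mock, 0 of 67 genes and 0 of 2 ribosomal RNAs had an edgeR adjusted p under 0.05, and 0% of all genes did. At an unadjusted p under 0.05 there was 1 of 67, against 4.44% of all genes, and DESeq2 called 0 of 78, against 0.183%, with no adjusted p for 32 of the 78. That gene was ATMG00450, with 4.03, 4.46 and 2.29 CPM in mock and 6.60, 6.91 and 3.30 after 7 days. Its groups overlapped through 7 days 3, and its log2 fold change was 0.71 ± 0.32 (unadjusted p = 0.0480, adjusted p = 1.00 in edgeR). Of the 67 log2 fold changes 65 were above 0, against 50.3% of all genes, with a median of 0.34 and a range of -0.12 to 0.84, where the median of all genes was 0.0013. No gene had groups that did not overlap, against 4.62% higher and 4.53% lower over all genes.

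The median of 0.34 rested in part on single libraries. Without 7 days 2 it was 0.10, with 53 of 68 genes above 0. Without 7 days 3 it was 0.56, and 28 of 69 genes had an unadjusted p under 0.05, where 4.70% of all genes did. Without the 3 libraries of lowest total it was 0.53, all 69 genes were above 0 and 30 of them had an unadjusted p under 0.05, where 5.90% of all genes did. The lowest adjusted p of a member was then 0.336 in edgeR, so no member was called there either. That subset keeps mock 3, with 38.6 CPM of shoot genes, while its other libraries had 0.603 to 2.11 CPM. Treatment and shoot RNA are thus confounded in it, and the part of shoot RNA was not tested. Rows of the chromosome 2 insertion gave a median of 0.37, with 50 of 51 above 0 and 0 called. They lie in sequence shared with the mitochondrial genome, so they are no independent set.

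Between 7 days and 1 day, 0 of 67 genes and 0 of 2 ribosomal RNAs were called by edgeR, as were 0% of all genes. At an unadjusted p under 0.05 the count was 0 of 67, against 2.03% of all genes, and DESeq2 called 0 of 78, against 0%. Log2 fold changes were above 0 in 63 of 67, against 50.5% of all genes, with a median of 0.21. No gene had groups that did not overlap, against 3.06% higher and 3.31% lower. The lowest p belonged to ATMG00080, an unnamed row with 448, 529 and 325 CPM after 1 day and 515, 718 and 493 after 7 days. Its log2 fold change was 0.41 ± 0.20 (edgeR adjusted p = 1.00), and 0.31 ± 0.20 for 7 days against mock (adjusted p = 1.00). The median over the members was -0.05 without 7 days 2, 0.43 without 7 days 3, 0.45 without 1 day 2 and 0.04 without 1 day 3. The comparisons with mock share the mock libraries, and those with 1 day the 1 day libraries, so their medians are not independent. A p that misses the threshold does not show that levels were equal, and the SE of each named member above is given beside its value.

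**Figure D4:**
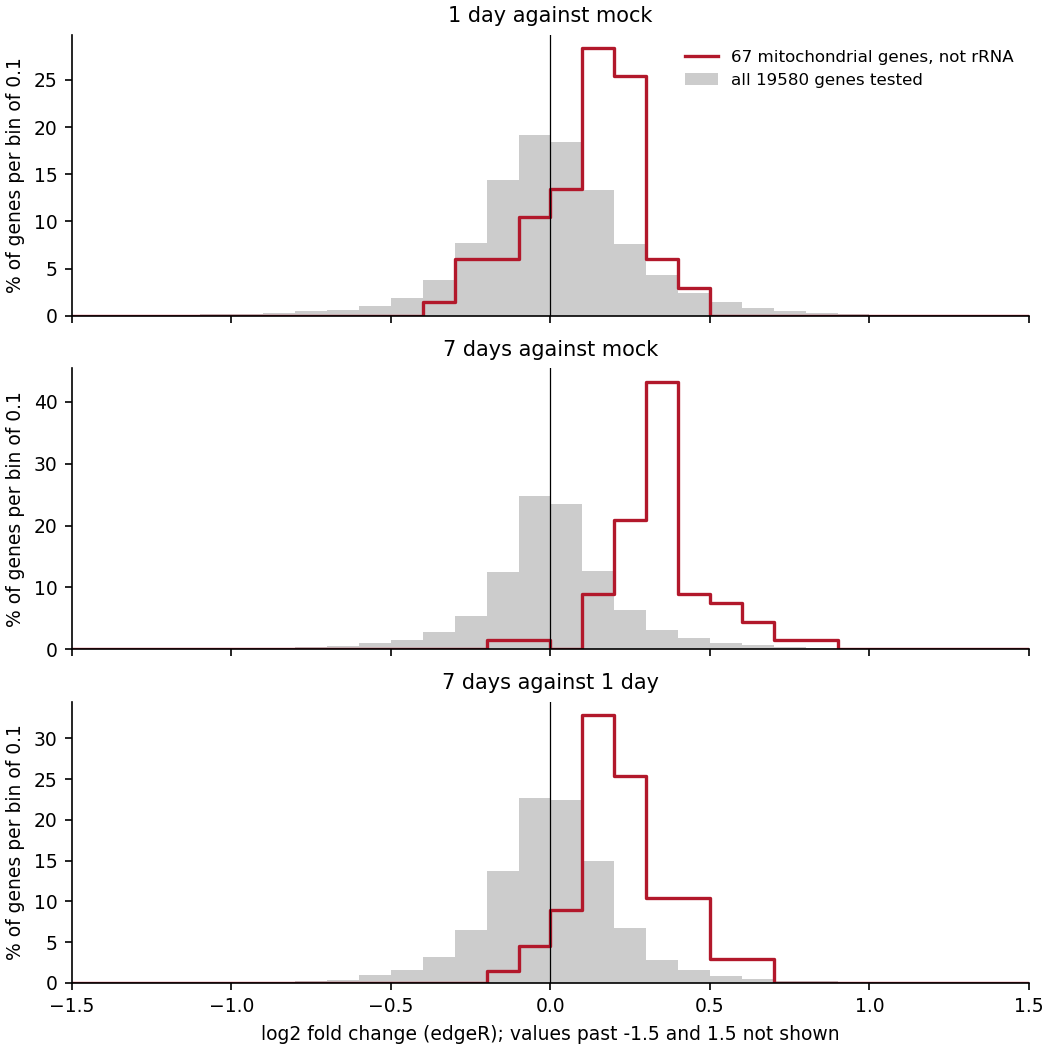
Percentage of genes (y axes) per bin of 0.1 in log2 fold change (x axis) for the 67 non-ribosomal mitochondrial genes (red line) and all 19580 genes tested (grey bars) in the 3 comparisons. The red line is centred at 0.14, 0.34 and 0.21 and the grey bars near 0, and no mitochondrial gene passed the test in any panel.

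Nuclear genes with a role in mitochondria were read from 4 lists. Of their 83 tested genes, edgeR called 0 in each comparison, and 3, 3 and 0 had an unadjusted p under 0.05 in the comparisons of 1 day with mock, of 7 days with mock and of 7 days with 1 day. The shares over all genes were 7.45%, 4.44% and 2.03%. DESeq2, which tested 88 of the listed genes, also called 0, with 3, 5 and 2 at an unadjusted p under 0.05. It gave an adjusted p for 82, 72 and 88 of them in the same order. Of 25 tested genes of transcription and RNA maturation (of 26 listed), 12 were above 0 after 1 day, 21 after 7 days against mock and 20 in 7 days against 1 day, with medians of -0.01, 0.12 and 0.19. The lowest p-values were those of EMB2730 (AT5G02250), listed as the RNA exonuclease RNR1, and WTF9, a splicing factor, after 1 day (log2 fold changes 0.26 ± 0.13 and -0.46 ± 0.23, edgeR adjusted p = 0.701 and 0.715). After 7 days against mock they were SLO1 and MORF3, both editing factors (0.39 ± 0.24 and 0.18 ± 0.14, edgeR adjusted p = 1.00 each), and between 7 days and 1 day WTF9 and MORF3 (0.46 ± 0.23 and 0.28 ± 0.14, edgeR adjusted p = 1.00 each).

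Nuclear subunits of the respiratory complexes, which assemble with the mitochondrial ones, had 31 of 31 genes tested. Above 0 were 4 after 1 day, 7 after 7 days against mock and 17 in 7 days against 1 day, with medians of -0.07, -0.05 and 0.05. CYTC-2, a cytochrome c that carries electrons to complex IV, had 58.2, 55.2 and 60.4 CPM in mock, 43.2, 46.6 and 41.3 after 1 day, and 50.02, 47.8 and 37.5 after 7 days. All treated libraries lay below all mock libraries, with log2 fold changes of -0.40 ± 0.12 and -0.35 ± 0.12 against mock (edgeR adjusted p = 0.344 and 0.870). SDH1-1, a subunit of succinate dehydrogenase, had 450, 456 and 462 CPM in mock, 369, 310 and 390 after 1 day, and 426, 421 and 396 after 7 days. It too was lower in all treated libraries than in mock, with a log2 fold change of -0.36 ± 0.12 after 1 day and 0.22 ± 0.12 between 7 days and 1 day (edgeR adjusted p = 0.435 and 1.00). Both genes were picked for a low p. Over all genes tested, 5.79% were lower than mock with no overlap after 1 day and 4.53% after 7 days. The others with the lowest p were SDH2-1, another subunit of that complex, after 7 days (-0.26 ± 0.14) and AT1G51650, a subunit of ATP synthase, between 7 days and 1 day (-0.19 ± 0.15; edgeR adjusted p = 1.00 each).

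Alternative respiration and stress genes act beside the main chain or answer to its failure, and 16 of 21 were tested. Above 0 were 7, 4 and 5 in the same order of comparisons, with medians of -0.14, -0.30 and -0.15. NDB2, an external NADH dehydrogenase, had 244, 234 and 246 CPM in mock, 179, 160 and 193 after 1 day, and 196, 206 and 152 after 7 days. It was lower in all treated libraries than in any mock library, with log2 fold changes of -0.45 ± 0.13 and -0.38 ± 0.13 (edgeR adjusted p = 0.344 and 0.886). NDB2 too was picked for a low p, and the shares lower with no overlap over all genes were 5.79% and 4.53%. AOX1A, the main alternative oxidase, had 64.1, 84.1 and 97.0 CPM in mock and 63.4, 78.8 and 56.4 after 1 day, which overlap (-0.31 ± 0.16, edgeR adjusted p = 0.721). NDB4, at 2.51 CPM or less in each library, had -1.61 ± 0.71 and -1.48 ± 0.71 for 7 days against mock and against 1 day, and NDA2, an internal NADH dehydrogenase, -0.22 ± 0.13 for 7 days against 1 day (edgeR adjusted p = 1.00 each).

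Among genes of mitochondrial DNA maintenance 11 of 11 were tested. Above 0 were 5, 8 and 9 in the same order, with medians of -0.05, 0.04 and 0.10. MTSSB, a single-strand DNA binding protein, had log2 fold changes of -0.38 ± 0.20 after 1 day and 0.29 ± 0.20 between 7 days and 1 day (edgeR adjusted p = 0.716 and 1.00). RAD52-1, a recombination protein, had 0.20 ± 0.17 after 1 day and 0.22 ± 0.18 after 7 days against mock (edgeR adjusted p = 0.835 and 1.00). GYRA, a DNA gyrase subunit, had 0.16 ± 0.24 and 0.35 ± 0.24 for 7 days against mock and against 1 day (edgeR adjusted p = 1.00 each).

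**Figure D5:**
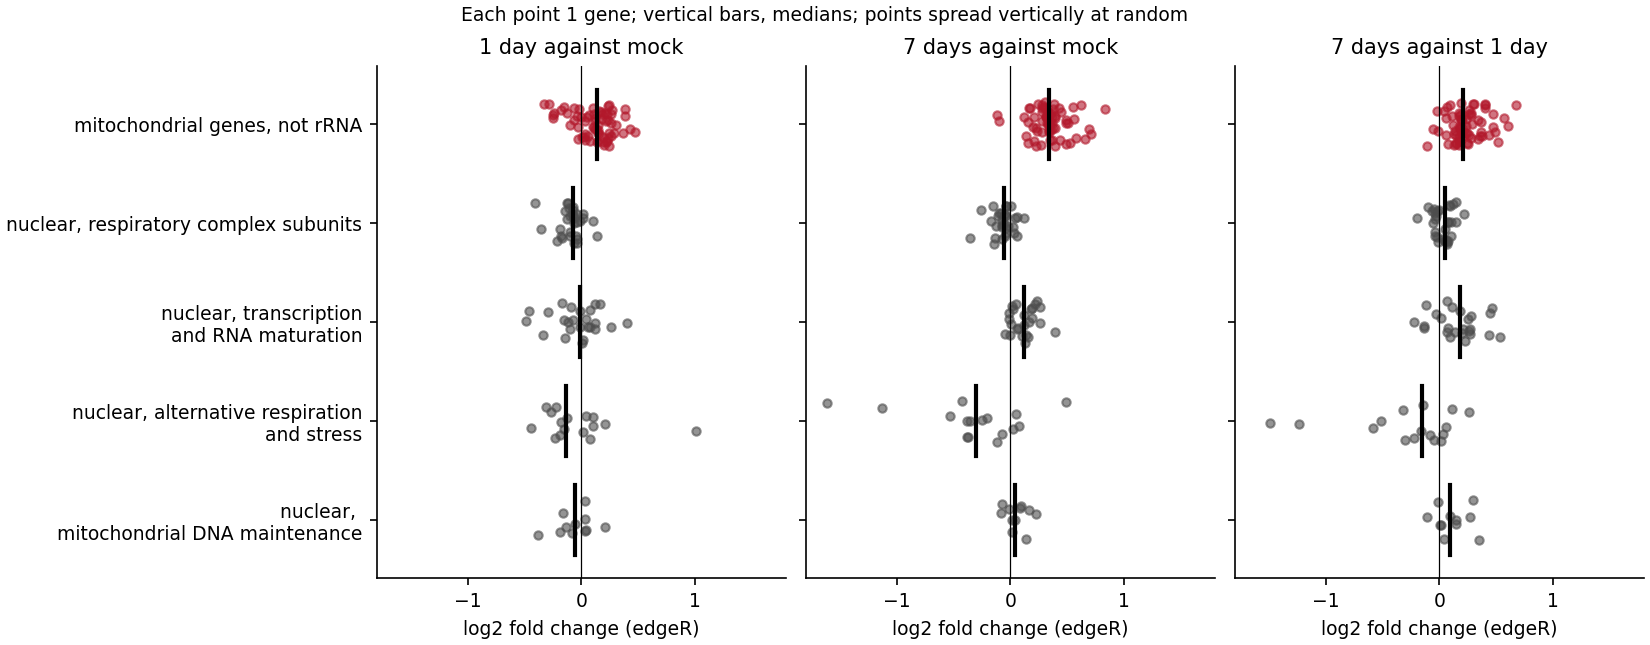
Log2 fold change (x axis) of each tested gene in the 3 comparisons for the 67 non-ribosomal mitochondrial genes (red) and 4 nuclear lists (grey), with a bar at each median. For 7 days against mock the medians are 0.34, -0.05, 0.12, -0.30 and 0.04 from top to bottom, and no gene passed the test.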

How the data were processed

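Counts per gene of 9 total-RNA root libraries were used as the authors deposited them: raw whole numbers for 28775 genes, with 2 blank rows left out. The kit was a strand-marking one for total RNA (TruSeq), per the labels' protocols. FastQC, cutadapt and edgeR are named, without versions, in the submitters' processing notes. For aligner, counter, build, annotation, strand setting and treatment of reads with several origins, the entry is "not given in the sources used here". Genes were filtered with filterByExpr (19580 left), scaled by TMM and tested in 1 edgeR 4.0.16 quasi-likelihood fit over all 9 libraries with group as the only factor (R 4.3.3), with Benjamini-Hochberg adjustment over all genes tested and a threshold of 0.05. The SE is the absolute log2 fold change divided by the square root of F. The procedure was tested on simulated data. CPM is TMM-scaled, except marker sums, which use total counts. Shares leave out the mitochondrial rows named as ribosomal RNA and rows RefSeq annotates as ribosomal RNA, and were compared by exact permutation.

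Members, lists and tests were chosen with earlier results of these data known. Named in the text are each ribosomal RNA, the genes of each role class, the 3 most counted rows without a role, the lowest p of each comparison and, from each nuclear list, the 2 lowest p-values per comparison. The rule allowed a name only where the reference pairs it with the identifier, so role classes hold fewer genes than planned and the largest and smallest changes of each planned class are not singled out. Alternatives were RLE and upper quartile scaling, library sizes from nuclear genes, no filter, a CPM of at least 1 in 3 libraries, an adjusted p under 0.01, DESeq2 1.42.0, the replicate number as a block, fits of 2 groups alone, no libraries of lowest total, and each library left out in turn. Shares were also set against nuclear counts. Adding chromosome 2 rows to the members, a block within 2 groups and sign flips of shares over pairs were chosen after seeing the data. Samples with the same replicate number deviated together between 7 days and 1 day (r 0.21 to 0.26 in 3 of 3 pairs, other pairs at most 0.028), so the numbers were taken as pairs there on the data alone: no label says what a number marks. With mock, 1 of 3 pairs exceeded 0.1 in each comparison.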

Additional observations from a re-analysis of the deposited data

How the results depend on the processing

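All counts of members called stayed at 0 in each of the 21 alternatives per comparison, the replicate block included. With the block, the medians of the non-ribosomal genes were 0.09, 0.28 and 0.21 in the comparisons of 1 day with mock, of 7 days with mock and of 7 days with 1 day, and 1, 7 and 5 of 67 had an unadjusted p under 0.05 (0, 1 and 0 without it), where 9.25%, 5.03% and 3.17% of all genes did; other scalings moved the median of all genes by at most 0.025. Leaving out 1 library at a time gave medians of -0.070 to 0.32, 0.095 to 0.56 and -0.053 to 0.45. Differences in the non-ribosomal share then ran from -0.0611 to 0.512 points, 0.0973 to 0.813 and -0.144 to 0.572, and in the ribosomal RNA share from -1.36 to 0.519, -0.710 to 1.26 and -0.0850 to 1.23; without the 3 libraries of lowest total the ribosomal RNA share after 1 day exceeded mock by 0.178.

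Of 46 log2 fold changes of single genes, 38 kept their sign throughout. ATMG00020 ran from -1.02 to 0.62 (1 day against mock) and -0.56 to 1.25 (7 days against mock) when 1 library was left out, ATMG01390 from -1.55 to 1.19, -1.08 to 2.02 and -0.37 to 1.67 in the 3 comparisons, ATMG00960 from -0.42 to 0.088 (1 day against mock), ATMG00180 from -0.017 to 0.45 and ATMG00980 from -0.58 to 0.13 (7 days against mock). Without the 3 libraries of lowest total, 1 day against mock turned to 0.30 in ATMG00020, 0.35 in ATMG01390 and 0.093 in ATMG00960, and 7 days against mock to 0.0048 in ATMG00980. The replicate block turned ATMG01390 to -0.10 (7 days against mock) and, within 2 groups, to 0.033 (1 day against mock). The causes were not tested.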
